A study of Mus musculus with 147 samples.

Results

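Germ cells of Helq null and wild-type male fetuses were compared at E15.5, an embryonic day on which most wild-type germ cells of the testis have already left mitosis. The cells were chosen by their names in the deposited table, which record the time-point, the genotype, the sorting reporter, the position in the gonad and the replicate. Cells of E15.5 that carried the reporter label BVSC were kept when they had more than 2000 detected genes and between 10000 and 1000000 unique molecular identifiers (UMIs, the counted mRNA molecules). Of 384 such cells sequenced, 374 passed, 187 of each genotype, out of 12692 cells that passed in the whole series and 13032 cells in all. UMIs were summed over the cells of each genotype and replicate, which gave 4 pools. The Helq null pools held 95 and 92 cells for replicates 1 and 2, and the wild-type pools held 93 and 94.

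Wild-type fetuses came from C57BL/6 females mated with males that carry 2 fluorescent reporter transgenes (together BVSC), a Prdm1 (Blimp1) promoter with mVenus and a Dppa3 (Stella) promoter with ECFP. Helq null (Helq-/-) mice were derived from BVSC embryonic stem cells in which Cas9 and a single guide RNA had left a small deletion in exon 1 of both alleles. Chimeras made with these cells were mated with each other. Both genotypes therefore carried the reporters and neither received a drug, but the nulls were not littermates of the wild-type fetuses, so the lost gene and the genetic background of the line cannot be told apart. The deletion was present in every cell of the null fetuses, the somatic cells of the gonad included. By E15.5 the mVenus signal has faded in germ cells, and cells positive for ECFP were sorted and picked singly by mouth pipette. Each gonad had been cut into proximal (P), central (C) and distal (D) pieces by distance from the mesonephros. The sample information of the study shows that each wild-type replicate of E15.5 pooled several embryos or gonads, and how many null fetuses made up a replicate is not given in the sources used here. The p-values below measure the spread between these pools.

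HELQ is a DNA helicase that acts on stalled replication forks, where it works with the ATR kinase and its substrate CHK1. Fetal male germ cells go on dividing for some days inside the testis cords, then stop in G0/G1, lose pluripotency factors such as Nanog and the Nodal pathway, and switch on the male programme that includes de novo DNA methylation and the piRNA pathway. The cyclin-dependent kinase inhibitor p21 (Cdkn1a) and other targets of p53 are induced by DNA damage in many cell types.

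The guide and its target are shown because they define the null allele. The guide matched the minus strand of chr5:100798315-100798334 (GRCm38/mm10), inside the 305-base exon 1 of the transcript Helq-201 and in its coding part, from coding base 140. The first sequence gives the guide in lower case with the PAM in capitals, and the second gives chr5:100798302-100798344 on the same strand with the guide's target in capitals.
Helq guide: ggagccgccgccggaaaaccGGG
Helq target site: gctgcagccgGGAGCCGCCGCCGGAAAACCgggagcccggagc

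No difference in Helq mRNA passed the test. Its level was 23.5 and 21.01 CPM (counts per 1000000 UMIs) in the null pools and 17.4 and 20.8 CPM in the wild-type pools (log2 fold change 0.29 ± 0.38 (SE), edgeR adjusted p = 0.742). The library chemistry reads the 3′ ends of mRNA, so the small deletion in exon 1 lies outside what was counted, and the level does not test the genotype labels.

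Each pool was 1 library of 96 wells, 32 per position, and held between 24168295 and 32654591 UMIs, with a median of 259432 to 336422 UMIs per cell. All 4 libraries used the same 96 cell barcodes by design, and no barcode served at more than 1 position, so position and barcode set cannot be told apart. Mitochondrial transcripts took 1.43% to 1.77% of the UMIs. The 8 germ cell markers, among them Ddx4, Dazl and Dppa3, summed to 3541 and 3283 CPM in the null pools and to 3222 and 4139 CPM in the wild-type pools, and none of them passed the test. Sertoli markers summed to 91.7 and 132.6 CPM in the null pools and to 195 and 94.8 CPM in the wild-type pools, against 1733 to 3040 CPM in the somatic pools of the same gonads. Interstitial, Leydig, endothelial, macrophage and blood markers each summed to at most 209 CPM in every germ cell pool. In edgeR 0 markers of any of these 6 classes passed, with 4 Sertoli, 1 interstitial, 1 endothelial and 1 macrophage marker at an unadjusted p under 0.05. Macrophage markers were lowest in null replicate 1 (9.21 CPM) and highest in wild-type replicate 1 (80.5 CPM), with C1qb and C1qc at 0 in all 4 pools, and their part in the results below was not tested. Among the pools of other days used for comparison, null replicate 2 of E14.5 stood apart from replicate 1 of its day, and the E14.5 counts and list medians are given with and without each of them.

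The genotypes differed in 208 of 18119 genes tested with edgeR at a false discovery rate of 0.05, or 1.15% of them. Of these, 110 genes were higher in the null pools (0.607%) and 98 were lower (0.541%). All 208 differences were at least 2-fold. The median log2 fold change over all genes tested was −0.05, and 3416 genes had an unadjusted p under 0.05. The pools of the genotypes did not overlap in 9580 genes (52.9%), so a lack of overlap alone sets no gene apart. Without scaling factors (CPM on total UMIs only) 19 genes passed, 5 higher and 14 lower, of which 18 were among the 208. In the text below, "passed" means an adjusted p under 0.05 in the edgeR test.

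**Figure D1:**
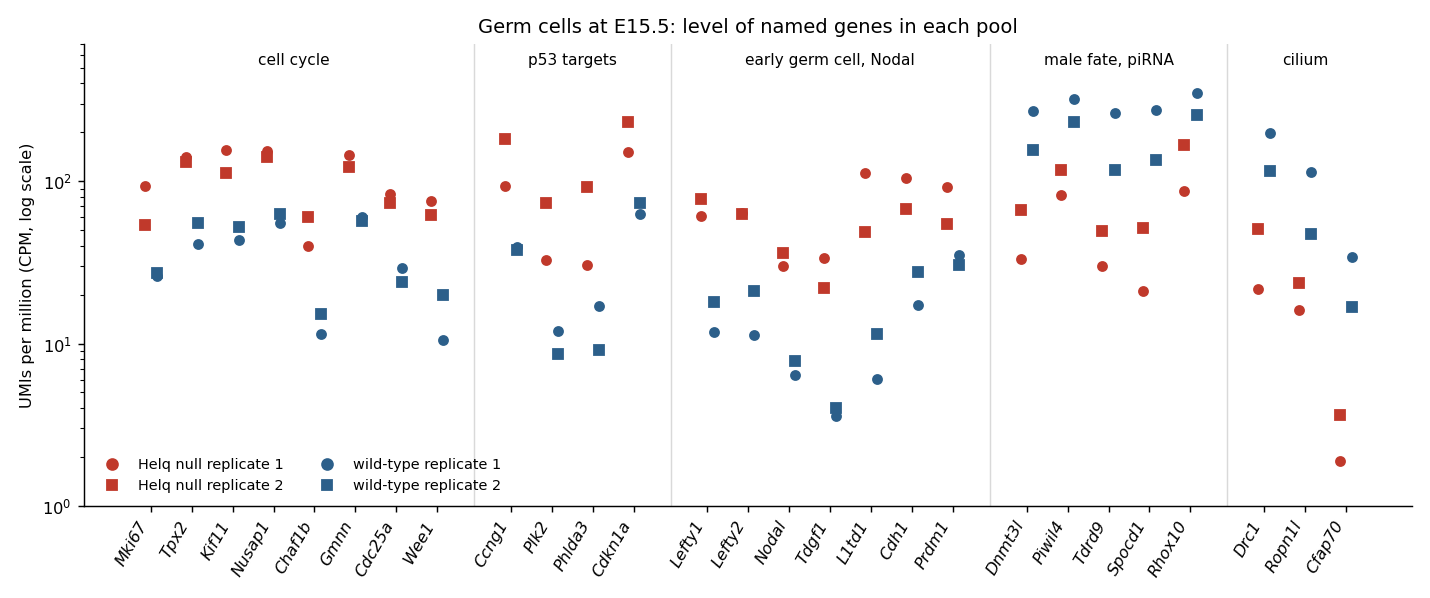
Level of selected named genes in each E15.5 germ cell pool, in CPM on a log axis, grouped by role, with Helq null pools in red and wild-type pools in blue. Each point is 1 pool of cells (circle, replicate 1; square, replicate 2). The cell cycle, p53 target, early germ cell and Nodal genes shown sit higher in both null pools, and the male fate and cilium genes shown sit higher in both wild-type pools.

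Most of the genes that passed also change during normal development. A wild-type course was defined from pools that the E15.5 comparison does not use, as the genes that differed at least 2-fold between wild-type germ cells of E14.5 and E16.5 (false discovery rate 0.05, edgeR). By this rule 5274 of 19893 genes rose with time (26.5%) and 3009 fell (15.1%). Of the 98 genes lower in the null pools, 74 (75.5%) were genes that rise in the wild-type course and 1 was a gene that falls, while risers made up 21.1% of all genes tested. Of the 110 genes higher in the null pools, 84 (76.4%) were genes that fall in the wild-type course and 3 were risers, while fallers made up 16.53% of all genes tested. The remaining 23 higher and 23 lower genes belonged to neither class. Over all 3832 tested risers the median log2 fold change, null minus wild-type, was −1.13, with 87.5% of them negative. Over all 2995 tested fallers it was 0.62, with 92.4% positive, and over the 11292 genes of neither class it was −0.03. These medians kept their sign under every setting tried, but the size depended on single pools. The riser median was −0.54 without wild-type replicate 1, −1.63 without wild-type replicate 2 and −1.89 without null replicate 2, and the faller median was 0.41 without wild-type replicate 1.

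**Figure D2:**
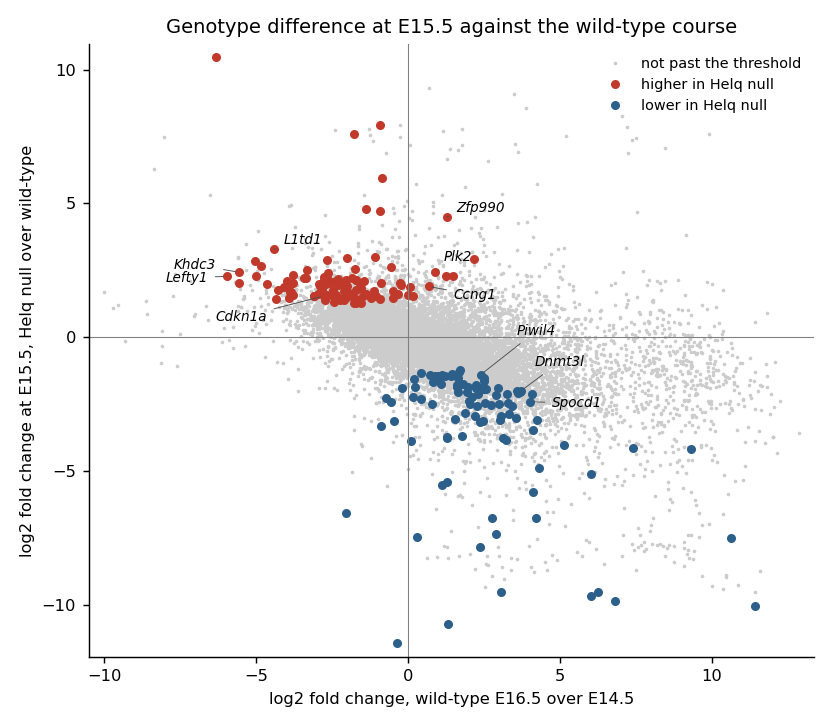
Log2 fold change between Helq null and wild-type at E15.5 (vertical axis) against log2 fold change between wild-type E16.5 and E14.5 (horizontal axis), 1 point per gene, with the genes that passed at E15.5 in red (higher in null) or blue (lower). Gm48168 has no wild-type course value and is not shown. Points far out on either axis are genes with almost no UMIs in 1 group. The coloured points lie mostly in the upper left and lower right, 158 of 208 genes being fallers that were higher or risers that were lower in the null pools.

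The same course gave each pool a stage index, the mean log2 CPM (pseudocount 1) of the risers minus that of the fallers, which grows with developmental time. The null pools stood at −4.53 and −4.14 at E15.5, and the wild-type pools at −2.62 and −3.62. The wild-type pools of E14.5 stood at −4.69 and −4.86, and those of E16.5 at −1.19 and −1.44. Both null pools thus lay between the wild-type pools of E14.5 and those of E15.5. The difference between the genotypes at E15.5 was −1.21 (null mean −4.33 ± 0.28, wild-type mean −3.12 ± 0.71, SD, n = 2 pools each; exact two-sided permutation p = 0.3333, the smallest that 2 against 2 pools can give). It was −0.71 without wild-type replicate 1 and −1.71 without wild-type replicate 2, so the 2 wild-type pools differed from each other by almost as much as the genotypes did. At every position the null pools were lower than both wild-type pools. They ranged from −4.61 to −3.94 over the positions, and the wild-type pools from −3.88 to −2.65.

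Single cells spread widely within each pool. With every cell thinned to 50000 UMIs, 89.4% and 68.2% of null cells in replicates 1 and 2 had an index at or below −3.32, the 90th percentile of the wild-type cells of E14.5. In the wild-type pools of E15.5 the shares were 9.89% and 38.9%. An index at or above −2.05, the 10th percentile of the wild-type cells of E16.5, was reached by 36.3% and 3.33% of wild-type cells and by 0 of 94 and 0 of 88 null cells, which allows shares of up to 3.19% and 3.41%. The cells of a pool are not replicates, and these shares describe the 4 pools.

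**Figure D3:**
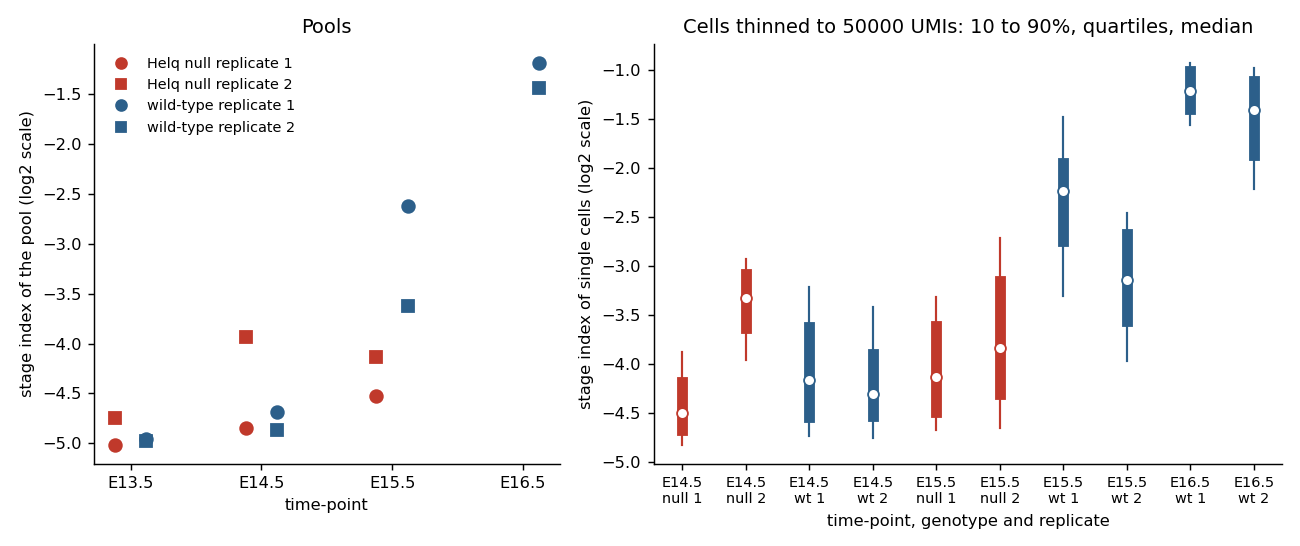
Stage index (log2 scale) of each germ cell pool from E13.5 to E16.5 (left, 1 point per pool) and of single cells thinned to 50000 UMIs (right, median as a white point, quartiles as a bar, 10th to 90th percentile as a line), with null in red, wild-type in blue and a larger value for a later profile. The null pools at E15.5, −4.53 and −4.14, lie below the wild-type pools of the same day, −2.62 and −3.62, and null replicate 2 of E14.5 lies above the other pools of its day.

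Genes of the cell cycle were mostly higher in the null pools. Over all 18119 genes tested, 8636 had a positive log2 fold change and 1.15% passed, and these are the background for the lists here and below. Of 43 genes of the G1/S transition and DNA replication, 40 had a positive log2 fold change and 2 passed (4.65%), both higher, with a median of 0.69. Of 53 genes of G2 and mitosis, 49 were positive and 7 passed, all higher, with a median of 0.52. Of 21 cyclins, cyclin-dependent kinases and E2F factors, 19 were positive with a median of 0.93, and 0 passed, although 10 had an unadjusted edgeR p under 0.05. In the wild-type course 29 of the 43 G1/S genes and 33 of the 53 G2/M genes fall. The G1/S genes summed to 5948 and 5712 CPM in the null pools and to 4083 and 4170 CPM in the wild-type pools.

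Among the G1/S genes, Chaf1b, a subunit of the chromatin assembly factor that loads histones behind the fork, was at 39.97 and 59.9 CPM in the null pools and at 11.504 and 15.1 CPM in the wild-type pools (log2 fold change 1.96 ± 0.36, edgeR adjusted p = 0.0309). Gmnn, which encodes geminin, the inhibitor of origin licensing in S and G2, was at 145.2 and 122.95 CPM against 60.4 and 56.9 CPM (1.28 ± 0.26, edgeR adjusted p = 0.0450; 0.0558 without null replicate 1). For both genes the lower null pool was above the higher wild-type pool, as it was for 23.7% of all genes tested. The replication genes Rrm2, Tyms and Usp1 lay just outside the threshold, with adjusted p of 0.0512 to 0.0514 in the same test.

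Among the mitotic genes, Kif11, the motor that pushes spindle poles apart, was at 155 and 111.7 CPM in the null pools and at 43.4 and 52.3 CPM in the wild-type pools (1.55 ± 0.30, edgeR adjusted p = 0.0377). Tpx2, which activates Aurora A on the spindle, was at 140.2 and 132.05 CPM against 41.3 and 55.4 CPM (1.55 ± 0.29, edgeR adjusted p = 0.0313). Nusap1, a spindle microtubule binder, was at 154 and 140.3 CPM against 55.1 and 62.5 CPM. The other genes that passed were Ect2, needed for cytokinesis, Nuf2 of the outer kinetochore, Gtse1 and Psrc1. Every one of these genes was higher in both null pools than in both wild-type pools, as were 23.7% of all genes tested. They were picked because they passed on these pools, so this is no added support.

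Mki67, the proliferation marker Ki-67, was at 93.04 and 53.6 CPM in the null pools and at 26.04 and 27.1 CPM in the wild-type pools. The pools did not overlap, as in 52.9% of all genes tested, and the difference missed the threshold (log2 fold change 1.55 ± 0.35, edgeR adjusted p = 0.0556). Over the 16 alternative settings its adjusted p ran from 4.51e-05 (edgeR without null replicate 2) to 0.172 (edgeR with the spread of all germ cell pools). In the wild-type course Mki67 was at 112.1 and 138.7 CPM at E14.5 and at 7.63 and 22.04 CPM at E16.5.

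The share of cells with at least 1 Mki67 UMI was counted after every cell had been thinned to 50000 UMIs. This share grows with the Mki67 RNA per cell as well as with the number of cells that express it, so it cannot tell them apart. It was 64.9% (61 of 94 cells, 95% exact binomial interval 54.4% to 74.5%) and 54.5% (48 of 88, 43.6% to 65.2%) in the null pools. It was 29.7% (27 of 91, 20.5% to 40.2%) and 26.7% (24 of 90, 17.9% to 37.03%) in the wild-type pools. The intervals cover counting error only, and those of the null pools did not meet those of the wild-type pools. The means were 59.7% ± 7.32 and 28.2% ± 2.12 (SD, n = 2 pools each), a difference of 31.6 percentage points (exact two-sided permutation p = 0.3333, the smallest possible). Without thinning the shares were 89.5% and 81.5% in the null pools and 55.9% and 64.9% in the wild-type pools, a difference of 25.1 points. The thinned shares are therefore not the shares of cells that express Mki67. Wild-type germ cells were at 63.4% and 80.6% at E14.5 and at 20% and 30% at E16.5, so the null pools of E15.5 lay above the wild-type pools of their own day and beside the lower wild-type pool of E14.5. In the somatic cells of the same gonads the shares were 78.6% and 77.8% for null and 88.6% and 69.05% for wild-type fetuses, and the pools overlapped.

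**Figure D4:**
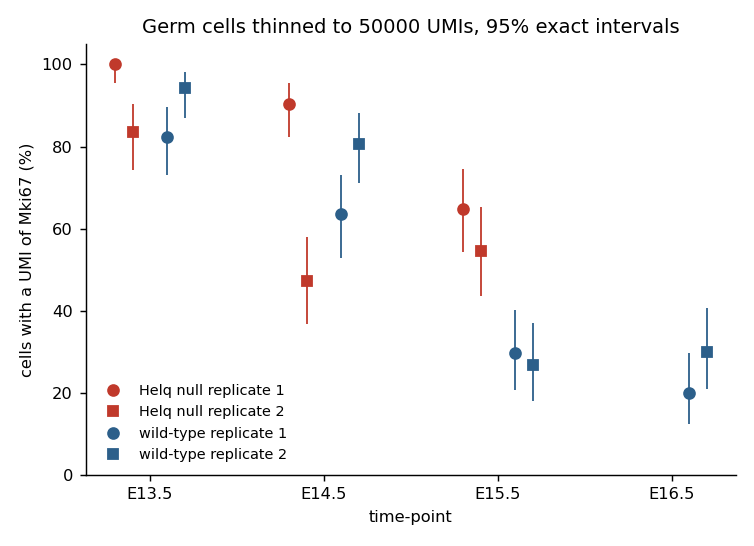
Percentage of germ cells with at least 1 UMI of Mki67 after thinning to 50000 UMIs per cell, by day and genotype, with 1 point per pool and 95% exact binomial intervals as bars. At E15.5 the null pools (64.9% and 54.5%) lie above the wild-type pools (29.7% and 26.7%), and at E14.5 the genotypes overlap.

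The promoters of many mitotic genes hold a cell cycle homology region (CHR), an element with the letters TTTGAA or TTCGAA that the DREAM complex and B-MYB bind. Both forms were looked for on either strand of the 300-base promoters (250 bases before to 50 after the start, RefSeq, GRCm38.p6). At least 1 match was present in 34 of 46 promoters of the G2/M list (73.9%), in 1964 of 13227 promoters of all genes tested (14.8%) and in 5254 of 27025 promoters in the table (19.4%). Of the G2/M genes that passed, 3 of 6 with a promoter in the table held one (Kif11, Ect2 and Psrc1). Among all genes that passed, a match was found in 13 of 74 promoters of genes higher in the null pools (17.6%) and in 10 of 64 promoters of genes lower (15.6%), both near the share over all genes tested. The 250 bases upstream of the start of Kif11 (chr19:37376132-37376381, plus strand) and of Ect2 (chr3:27153879-27154128, minus strand) are printed as the examples from the mitotic group, with the matches in capitals. The first base of the match is at −19 from the start of Kif11 and at −114 from that of Ect2, which has another match after its start.
Kif11 promoter: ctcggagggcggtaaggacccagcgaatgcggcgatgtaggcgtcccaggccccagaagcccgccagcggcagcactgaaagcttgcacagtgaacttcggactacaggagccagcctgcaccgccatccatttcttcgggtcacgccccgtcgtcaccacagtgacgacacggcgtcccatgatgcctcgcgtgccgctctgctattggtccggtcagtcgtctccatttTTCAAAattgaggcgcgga
Ect2 promoter: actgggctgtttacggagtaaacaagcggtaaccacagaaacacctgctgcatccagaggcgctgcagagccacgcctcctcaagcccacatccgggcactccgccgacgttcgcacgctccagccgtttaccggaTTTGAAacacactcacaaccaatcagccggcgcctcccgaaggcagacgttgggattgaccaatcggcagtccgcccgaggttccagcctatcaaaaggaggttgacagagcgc

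The partners of HELQ and the checkpoint of stalled forks include Fanconi genes, Atr, Chek1 and their substrates. Of 45 tested, 36 had a positive log2 fold change with a median of 0.41, and 2 passed (4.44%, against 1.15% of all genes tested). Both act on the entry into mitosis. Wee1, the kinase that holds CDK1 inactive until mitosis, was at 75.3 and 62.2 CPM in the null pools and at 10.6 and 19.9 CPM in the wild-type pools (log2 fold change 2.22 ± 0.39, edgeR adjusted p = 0.0273). Cdc25a, the phosphatase that removes the inhibitory phosphates from CDKs and a target of CHK1, was at 83.6 and 73.7 CPM against 29.4 and 23.9 CPM (1.65 ± 0.29, edgeR adjusted p = 0.0259). Both null pools exceeded both wild-type pools for each of these genes, as for 23.7% of all genes tested. Their products act on the same CDK phosphates in opposite ways. In the wild-type course 16 of the 45 genes fall and 1 rises. Wee1 is a faller, at 52.6 and 79.9 CPM in the wild-type pools of E14.5 and at 8.98 and 7.68 CPM in those of E16.5. Its null levels at E15.5 thus lay within the wild-type range of E14.5, and stage was not separated from genotype here. Brca1, needed for homologous recombination, did not pass, at 71.5 and 58.03 CPM against 25.8 and 32.5 CPM (edgeR adjusted p = 0.0847). Wee1 is also 1 of 6 factors that the study lists for transitional PGCs, the state between mitosis and arrest. All 6 had a positive log2 fold change with a median of 0.98, and Wee1 was the only one that passed. All 6 fall in the wild-type course. The study picked those 6 factors from these libraries, so their direction is not independent evidence.

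Targets of p53 were mostly higher in the null pools. Of 29 tested, 25 had a positive log2 fold change, 8 passed, all higher, and the median was 0.85. By the rule of the wild-type course 4 of the 29 fall and 3 rise, while most of the cell cycle genes fall. The others did not meet that rule, which does not show that they stay level, and stage was not separated from genotype here. Their sum was 1867 and 2521 CPM in the null pools and 1306 and 1309 CPM in the wild-type pools.

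Ccng1, cyclin G1, was at 93.2 and 182 CPM in the null pools and at 39.1 and 37.8 CPM in the wild-type pools (log2 fold change 1.90 ± 0.32, edgeR adjusted p = 0.0249). Plk2, a stress-induced polo-like kinase, was at 32.7 and 72.98 CPM against 11.9 and 8.61 CPM (2.43 ± 0.40, edgeR adjusted p = 0.0249). Cdkn1a was at 151 and 230.4 CPM against 62.7 and 73.3 CPM (1.54 ± 0.28, edgeR adjusted p = 0.0280). In all 3 genes null replicate 2 was the highest pool and the wild-type pools stood close together. With the spread estimated from all germ cell pools Plk2 and Cdkn1a lost their calls (edgeR adjusted p = 0.1017 and 0.0631). Phlda3, an inhibitor of AKT, behaved alike, at 30.6 and 91.8 CPM against 17.1 and 9.06 CPM, and its call was lost without null replicate 2 (edgeR adjusted p = 0.0450 with all pools and 0.0528 without it). Eda2r, a receptor of the TNF receptor family, was at 9.01 and 19.6 CPM against 1.76 and 1.90 CPM. Trp53inp1, which promotes p53 activity, was at 99.6 and 101.6 CPM against 32.6 and 44.5 CPM. Gtse1 and Psrc1, which are counted above among the mitotic genes, completed the 8.

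Wild-type germ cells did not lie at the null level on either neighbouring day for Plk2, which was at 9.13 and 6.60 CPM at E14.5 and at 18.7 and 19.2 CPM at E16.5. For Ccng1 the wild-type pools were at 45.1 and 46.7 CPM at E14.5 and at 92.3 and 96.99 CPM at E16.5, so null replicate 1 at E15.5 was within the range of the later day. Cdkn1a fell in the wild-type course, from 124.6 and 119.9 CPM at E14.5 to 20.3 and 26.01 CPM at E16.5. The p53 targets therefore did not share 1 wild-type course, in contrast to the G2/M list, in which none rises.

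Trp53 itself did not pass, at 161 and 146.2 CPM in the null pools and 59.8 and 88.5 CPM in the wild-type pools (log2 fold change 1.11, edgeR adjusted p = 0.0904). Btg2, an antiproliferative p53 target, was just outside (edgeR adjusted p = 0.0536). Of 31 apoptosis genes tested by edgeR, 0 passed, 16 were positive, 11 had an unadjusted p under 0.05, and the median was 0.22. Casp9, the initiator caspase of the mitochondrial pathway, was at 37.5 and 53.8 CPM in the null pools and at 101.7 and 89.9 CPM in the wild-type pools (edgeR adjusted p = 0.0915). Of the 10 CDK inhibitors and pocket proteins, Cdkn1a alone passed, and the list median was 0.68.

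Pluripotency and early germ cell genes were higher in the null pools in 28 of 32 cases, 4 of which passed, with a median of 0.84. L1td1, an RNA-binding protein of pluripotent cells, was at 113.1 and 48.9 CPM in the null pools and at 6.01 and 11.4 CPM in the wild-type pools (log2 fold change 3.29 ± 0.50, edgeR adjusted p = 0.0237). Klf5, a pluripotency transcription factor, was at 71.6 and 65.8 CPM against 20.99 and 23.1 CPM (1.71 ± 0.30, edgeR adjusted p = 0.0273). Etv4, an ETS factor downstream of FGF signalling, was at 37.9 and 48.4 CPM against 5.72 and 12.6 CPM. Each of these genes falls in the wild-type course, and 23 of the 32 on the list do. L1td1 was at 119.9 and 90.02 CPM in the wild-type pools of E14.5 and at 7.32 and 5.62 CPM in those of E16.5. The sum of the list did not separate the genotypes, at 6721 and 5801 CPM in the null pools and 4365 and 6020 CPM in the wild-type pools.

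Genes of Nodal signalling were mostly higher in the null pools. Of 15 tested, 12 had a positive log2 fold change, 4 passed, all higher, and the median was 0.93. The ligand gene Nodal was at 30.04 and 36.3 CPM in the null pools and at 6.39 and 7.82 CPM in the wild-type pools (log2 fold change 2.28 ± 0.40, edgeR adjusted p = 0.0259). Its co-receptor Tdgf1 (Cripto), which is on both lists, was at 33.6 and 21.8 CPM against 3.58 and 4.01 CPM (2.95 ± 0.46, edgeR adjusted p = 0.0245). Its feedback inhibitor Lefty1 was at 61.03 and 77.7 CPM against 11.7 and 17.9 CPM (2.27 ± 0.35, edgeR adjusted p = 0.0238). Lefty2 was at 63.6 and 63.1 CPM against 11.2 and 21.02 CPM, and since it is a near copy of Lefty1 the counting could split reads between the pair. Ligand, co-receptor and inhibitors were thus all higher in both null pools, as were 23.7% of all genes tested. With the spread estimated from all germ cell pools Tdgf1 alone of the 4 passed in edgeR, Nodal, Lefty1 and Lefty2 having adjusted p of 0.105, 0.0608 and 0.103. The whole list summed to 498 and 487 CPM in the null pools and to 226 and 216 CPM in the wild-type pools. In the wild-type pools Lefty1 went from 162 and 164 CPM at E14.5 to 4.58 and 2.22 CPM at E16.5, so the null pools of E15.5 were between the wild-type levels of the 2 days.

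Of 16 adhesion and homing genes, 14 were positive, 2 passed and the median was 0.87. Cdh1, which encodes E-cadherin, was at 104.2 and 67.6 CPM in the null pools and at 17.3 and 27.7 CPM in the wild-type pools (log2 fold change 2.00 ± 0.38, edgeR adjusted p = 0.0333). Pecam1, an adhesion molecule of early germ cells and endothelium, was at 48.5 and 54.9 CPM against 9.75 and 14.9 CPM (2.12 ± 0.37, edgeR adjusted p = 0.0263), while the 7 endothelial markers did not pass and their sums overlapped between the genotypes. Cdh1 was at 65.6 and 70.2 CPM in the wild-type pools of E14.5 and at 6.78 and 5.26 CPM in those of E16.5. Prdm1, the germ cell determinant that also drives the mVenus reporter, did not pass, at 92.3 and 54.6 CPM against 35.2 and 30.3 CPM (1.26 ± 0.33, edgeR adjusted p = 0.0864).

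Of 23 Notch ligands, receptors and targets 0 passed in edgeR, with 5 at an unadjusted p under 0.05 and a median of 0.26. Notch3, a receptor, was at 15.2 and 31.2 CPM in the null pools and at 8.82 and 9.68 CPM in the wild-type pools (edgeR adjusted p = 0.139).

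Genes of the male germ cell programme were mostly lower in the null pools. Of 32 genes of male fate and the piRNA pathway, 24 had a negative log2 fold change, 4 passed, all lower, and the median was −0.60. Their sum was 5571 and 5851 CPM in the null pools and 8739 and 8123 CPM in the wild-type pools. Dnmt3l, the cofactor of de novo DNA methylation, was at 32.96 and 66.5 CPM in the null pools and at 269 and 156 CPM in the wild-type pools (−2.01 ± 0.33, edgeR adjusted p = 0.0249). Spocd1, which links piRNAs to that methylation, was at 20.97 and 51.6 CPM against 274 and 135.6 CPM (−2.41 ± 0.40, edgeR adjusted p = 0.0249). Tdrd9, a piRNA pathway helicase, was at 30.2 and 49.2 CPM against 263 and 116.4 CPM. Piwil4 (Miwi2), the nuclear PIWI protein of fetal germ cells, was at 82.3 and 116.6 CPM against 322 and 231 CPM (−1.39 ± 0.26, edgeR adjusted p = 0.0296; 0.122 without null replicate 1). In all 4 genes the lowest pool was null replicate 1 and the highest was wild-type replicate 1. With the spread estimated from all germ cell pools none of the 4 passed in edgeR, at adjusted p of 0.372 for Dnmt3l, 0.234 for Spocd1, 0.396 for Piwil4 and 0.0553 for Tdrd9. All 4 rise in the wild-type course, and Dnmt3l went from 35.7 and 17.8 CPM at E14.5 to 462 and 448 CPM at E16.5. Rhox10, a homeobox gene of fetal male germ cells, was at 87.1 and 168 CPM against 348 and 255 CPM and did not pass (edgeR adjusted p = 0.0770).

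Cilium and flagellum genes had the lowest median of the lists, −1.03, with 48 of 55 negative and 4 passing, all lower in the null pools. Drc1, a subunit of the dynein regulatory complex of motile cilia, was at 21.7 and 50.5 CPM in the null pools and at 198 and 114.99 CPM in the wild-type pools (−2.04 ± 0.37, edgeR adjusted p = 0.0276). Cfap70, a protein of the motile axoneme, was at 1.90 and 3.64 CPM against 34.03 and 16.8 CPM (−3.10 ± 0.52, edgeR adjusted p = 0.0251). Ropn1l, of the sperm fibrous sheath, was at 16.2 and 23.5 CPM against 113.3 and 47.3 CPM, and it and Cfap53 lost their calls without wild-type replicate 1 (edgeR adjusted p = 0.154 and 0.144). With the spread estimated from all germ cell pools none of the 4 cilium genes passed, Drc1 having an edgeR adjusted p of 0.4365. The sums were 673 and 888 CPM in the null pools and 1735 and 1249 CPM in the wild-type pools. In the wild-type course 27 of the 55 rise.

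**Figure D5:**
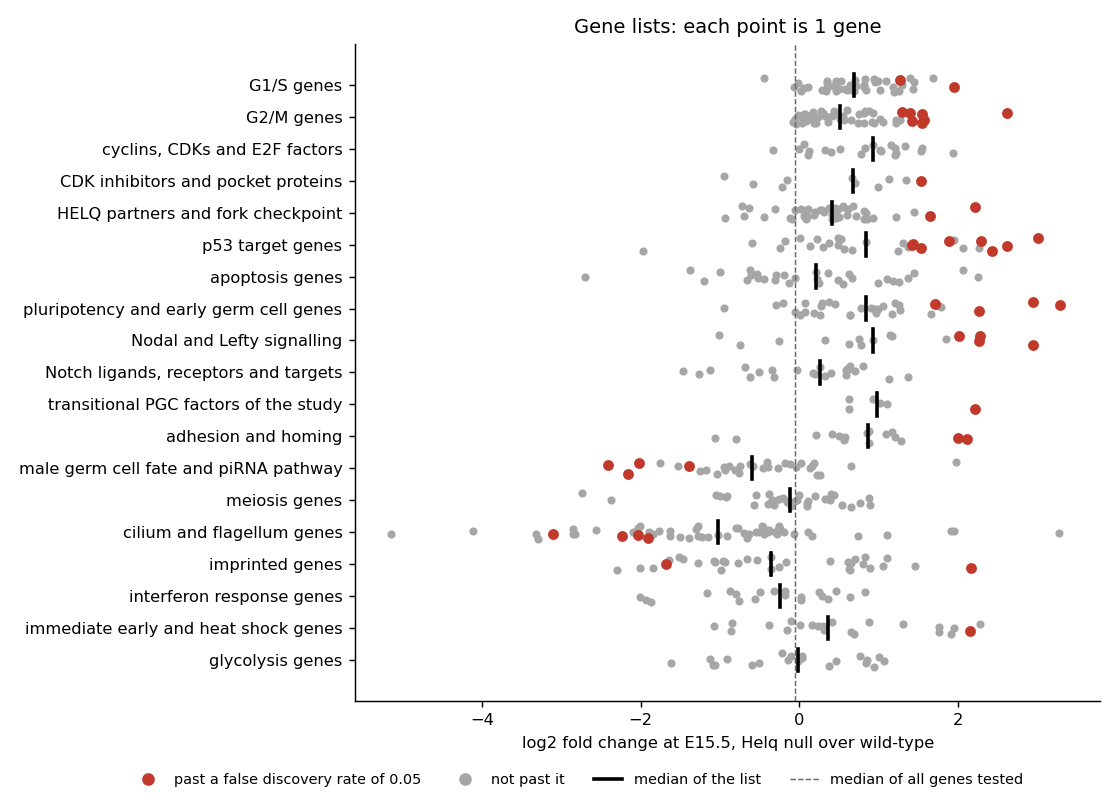
Log2 fold change between Helq null and wild-type germ cells at E15.5 (horizontal axis) for every tested member of each gene list, with the list median as a bar, the median of all genes tested as a dashed line and members that passed in red. The cell cycle, p53, pluripotency, Nodal and adhesion lists lie mostly to the right of 0, and the male fate and cilium lists mostly to the left.

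The other lists showed fewer differences. Of 34 meiosis genes tested by edgeR 0 passed, with 7 at an unadjusted p under 0.05 and a median of −0.12. Among 33 imprinted genes Zrsr1, a splicing factor gene, was lower at 42.1 and 31.1 CPM in the null pools against 144.9 and 106.4 CPM (−1.68 ± 0.29, edgeR adjusted p = 0.0254), and Mest was higher at 16.3 and 27.7 CPM against 5.98 and 4.34 CPM (2.16 ± 0.46, edgeR adjusted p = 0.0499; 0.0575 without null replicate 2). Of 22 immediate early and heat shock genes only Ier2 passed, at 39.9 and 126.8 CPM against 24.1 and 15.1 CPM (edgeR adjusted p = 0.0463; 0.0730 without null replicate 2), and the list median was 0.36. By edgeR 0 of 20 interferon response genes (0 at an unadjusted p under 0.05, median −0.24), 0 of 21 glycolysis genes (7, median −0.02) and 0 of 5 sex chromosome check genes (0, median 0.24) passed.

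Among the genes with a mean of at least 32 CPM, the largest rises outside the lists were in Gm48168, Gm26754, Zfp990 and Gm10036. Gm48168, a long intergenic non-coding RNA at chr13:65491789-65496793, had 3044 and 5783 UMIs in the null pools and 0 in both wild-type pools, which makes it at least 2583-fold higher when the wild-type pools together are set to 3 counts. Gm26754, another long intergenic RNA of chromosome 13, was at 44.4 and 85.6 CPM against 2.40 and 2.69 CPM (4.73 ± 0.42, edgeR adjusted p = 8.18e-04). Zfp990, a zinc finger gene of chromosome 4, was at 68.1 and 64.3 CPM against 3.45 and 2.77 CPM (4.50 ± 0.36, edgeR adjusted p = 3.02e-04). These genes were all but silent in wild-type germ cells of E15.5. Gm10036 is a processed pseudogene, at 353 and 386 CPM against 29.02 and 73.6 CPM, and its reads cannot be told with certainty from those of its parent gene. The largest fall was in AC166344.1, at 1.44 and 1.347 CPM in the null pools and 71.3 and 65.4 CPM in the wild-type pools (−5.53 ± 0.38, edgeR adjusted p = 1.04e-04). Further large falls were in Gm7534 (6.72 and 2.17 CPM against 77.5 and 48.2 CPM) and 2010005H15Rik (3.83 and 8.24 CPM against 109.9 and 34.7 CPM). Gm12589, Gm40988, Gm11639, Slc9a3r2 and Plac8 also passed, with log2 fold changes of −2.59 to −2.06.

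Several other genes with large rises have known germ cell or growth roles. Khdc3, a gene of the maternal protein complex of oocytes and early embryos, was at 112.99 and 116.2 CPM in the null pools and at 13.8 and 29.9 CPM in the wild-type pools (2.43 ± 0.39, edgeR adjusted p = 0.0249). Sohlh2, a transcription factor of germ cell differentiation, was at 70.4 and 73.3 CPM against 12.6 and 19.5 CPM. Id3, an inhibitor of helix-loop-helix factors and a target of BMP signalling, was at 67.2 and 111.6 CPM against 16.8 and 20.1 CPM (2.33 ± 0.33, edgeR adjusted p = 0.0174). All 3 fall in the wild-type course.

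A small group of the genes that passed at E15.5 had pools that did not overlap on any day sampled in both genotypes. Of the 208 genes, 20 had null and wild-type germ cell pools that did not overlap, in the same direction, at all 6 time-points from E11.5 to E18.5 with both genotypes, 8 higher and 12 lower. The same held for 0.568% of all 18119 genes tested. The E15.5 values form part of this count and 3 of the time-points had 1 null pool. Of the 20 genes, 12 were also apart in the same direction in the somatic cells of E15.5, as were 33.2% of all 208 genes that passed and 19.8% of all genes tested. Some of the 12 were apart on very few somatic UMIs. AC166344.1 had 1 and 1 in the null pools and 2 and 5 in the wild-type pools. Of the 19 with a position in the annotation, 7 lay on chromosome 14, 4 on chromosome 4 and 3 on chromosome 13, which hold 3.84%, 6.03% and 4.25% of the genes tested that have a position. These chromosomes were singled out after the positions were seen, and no test was made. The counts take each annotated gene as separate, which not all of them may be. On chromosome 14, 1700049E17Rik1 and 1700049E17Rik2 had near-identical levels, both at 22.98 CPM in wild-type replicate 1 and 2.51 CPM in null replicate 2. On chromosome 13 the span of Gm26754 holds that of 2410141K09Rik. Whether these pairs share reads was not tested. The 20 genes include Gm48168, Gm26754, Zfp990, AC166344.1 (the 1 without a position) and Cap1. The last encodes an actin-binding protein and was at 58.8 and 80.6 CPM in the null pools against 16.3 and 19.7 CPM. Zfp990 was at 78.5 and 71.7 CPM in the null pools of E14.5 and at 3.31 and 2.74 CPM in the wild-type pools of that day. The size of the gap was not steady for all of them. At E12.5 the null pool had Gm48168 at only 0.993 CPM, with 0 in the wild-type pools. Gm26754 was at 1.49 CPM there, against 0.242 and 0.468 CPM. Lost HELQ and the genetic background of the null line cannot be told apart for these genes, as for all others.

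Within each position of the gonad the 4 pools were tested again with fewer cells (29 to 32 per pool). In edgeR 23 of 15275 genes passed in proximal cells (0.151%), 153 of 15307 in central cells (1%) and 5 of 15152 in distal cells (0.033%). The central count fell when either wild-type pool was left out and rose when either null pool was left out. What made it larger than at the other positions was not tested. When the difference between distal and proximal cells was tested itself, 0 of 18098 genes passed in edgeR, with 831 at an unadjusted p under 0.05. Among the lists with members that passed, the imprinted genes alone had medians that differed in sign between positions (0.03 in proximal, −0.36 in central and −0.32 in distal cells). The medians were 0.60, 0.65 and 0.75 (proximal, central, distal) for G1/S genes, 1.07, 0.85 and 0.72 for p53 targets, 1.09, 1.14 and 0.83 for the Nodal list, and −0.57, −0.72 and −0.74 for male fate genes. Dnmt3l had levels of 25.3 to 88.4 CPM over the positions of the null pools and 86.1 to 283 CPM over those of the wild-type pools, so single positions overlapped although the pools did not. Ccng1 ranged from 84.6 to 194 CPM in null and from 26.01 to 48.1 CPM in wild-type positions and did not overlap. The share of cells with a Mki67 UMI was higher in the null pools by 26.8, 27.7 and 40.3 percentage points in proximal, central and distal cells.

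The genotypes differed less clearly on the days before. At E13.5 4 of 15364 genes passed in edgeR (0.026%), and at E14.5 0 of 16609 passed, with 962 at an unadjusted p under 0.05. The null pools of E14.5 differed strongly from each other. The stage index was −4.84 in replicate 1 and −3.94 in replicate 2, which is later than in either null pool of E15.5. The share of cells with a Mki67 UMI was 90.3% in replicate 1 and 47.3% in replicate 2, Mki67 was at 185 and 34.9 CPM, and Lefty1 was at 163 and 15.6 CPM, against 162 and 164 CPM for Lefty1 in the wild-type pools. Without null replicate 1 of E14.5 the count at E14.5 was 1177 and without replicate 2 it was 1716. The change of the genotype difference from E14.5 to E15.5 was tested as an interaction, and 0 of 19222 genes passed in edgeR, with 2109 at an unadjusted p under 0.05 (1819 passed without null replicate 1 of E14.5 and 168 without replicate 2). A difference confined to E15.5 was therefore not shown. The list medians of E14.5, null minus wild-type, depended on which null pool was in the fit, by leave-outs added after seeing the data. The p53 targets had a median of 0.53 with all pools, 0.48 without null replicate 1 and 0.35 without null replicate 2, and the CDK inhibitors and pocket proteins had 0.36, 0.28 and 0.41, so both lists kept the sign they had at E15.5. The G2/M median was negative in all 3 fits (−0.28, −0.51 and −0.18), opposite to E15.5. The medians of the other lists named here turned sign with the null pool. In the same order they were −0.12, −0.59 and 0.14 for G1/S genes, −0.43, −2.03 and 0.33 for the Nodal list, and 0.06, −0.38 and 0.47 for pluripotency genes. They were 0.36, 0.78 and −0.41 for male fate genes and −0.09, 0.01 and −0.45 for cilium genes. Without null replicate 2 these 5 lists thus had the sign they had at E15.5, and without null replicate 1 the opposite one. Plk2 was at 20.5 and 39.1 CPM in the null pools of E14.5 against 9.13 and 6.60 CPM, and Ccng1 was at 105.1 and 91.4 CPM against 45.1 and 46.7 CPM.

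In the somatic cells picked from the same gonads (181 cells in 4 pools) 0 of 14270 genes differed between the genotypes in edgeR, with 1242 at an unadjusted p under 0.05. Ccng1 had a log2 fold change of 0.95, Cdkn1a of 1.96 and Plk2 of −0.01 there. The somatic pool of null replicate 1 also held germ cell RNA, with germ cell markers at 890 CPM in sum against 334 CPM in null replicate 2 and 264 and 63.6 CPM in the wild-type pools. Its Cdh1 level of 32.6 CPM and its L1td1 level of 23.9 CPM stand beside that value, and its part in the somatic comparison was not tested.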

How the data were processed

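Single cells were sequenced with STRT-seq, in which each cell receives an 8-base barcode and each mRNA molecule a UMI, and the 3′ ends of cDNA are enriched. The deposited table holds UMI counts per gene and cell, made by the authors with UMI-tools, trimming with seqtk, STAR alignment to mm10 and featureCounts. The submitters' processing notes also list CASAVA 1.8. Cells of E15.5 with the BVSC label were filtered as described, and the counts were summed per genotype and replicate as named in the cells, with no doublet caller since cells were picked singly. The sums of the table equalled the deposited totals of all 2880 cells read. Sums were tested with edgeR 4.0.16 (R 4.3.3, quasi-likelihood test, TMM factors of 0.931 to 1.11, filterByExpr, Benjamini-Hochberg adjustment). Fold changes are log2, null minus wild-type, with the standard error after ±. Stage genes, positions, time-points and somatic cells were fitted in the same way, and shares were compared by exact permutation (scipy 1.17.1). Alternatives used DESeq2 1.42.0, limma 3.58.1 and the settings of the closing section. Positions are from GENCODE M21, matched for 17872 of the 18119 genes tested.

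Named genes were Helq and Mki67, the 12 largest rises and falls past the threshold with a mean of at least 32 CPM and no overlap, up to 4 passing members of each list (or 2 if none passed), and the genes the study names for this comparison. A gene that this rule names is not reported here. Psrc1, Ect2, Nuf2, Eda2r, Trp53inp1, Rrm2, Tyms, Usp1, Brca1, Btg2 and Cap1 were chosen after their values were seen. The lists (G1/S, G2/M, cyclins and CDKs, CDK inhibitors, HELQ partners, p53 targets, apoptosis, pluripotency, Nodal, Notch, transitional PGC factors, adhesion, male fate, meiosis, cilium, imprinted, interferon, immediate early, glycolysis, sex chromosome check genes and cell type markers) and the comparison were chosen with earlier results of these data known. On simulated counts of 17224 genes the E15.5 test recovered 8% of 2-fold and 67% of 4-fold changes, so many smaller differences are beyond it. The time-point interaction recovered 0% and 22%. Changes were planted only in genes above a minimum mean CPM, so these shares do not cover the genes with the lowest levels.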

Additional observations from a re-analysis of the deposited data

Results flagged for a closer look

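Genes named above were looked at again where every null pool moved one way at E15.5 and the opposite way in another comparison of the same genotypes. With 2 pools a side such opposite moves are common, and the outlier test could not be run on groups of 2.

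Against E15.5, the null pools were on the other side of the wild-type pools at E14.5 for Ier2 (log2 fold change −0.92) and for Mest (−0.65). The change of either difference between the days was tested as an interaction and did not pass. At E13.5 the signs of Gm7534 (6.16 ± 1.93) and 2010005H15Rik (4.43 ± 1.71) were opposite to those at E15.5, and the difference was not tested. Both genes were near the floor on that day, so the size of these values means little. Gm7534 was at 1.71 and 1.92 CPM in the null pools and at 0.036 and 0 CPM in the wild-type pools. For 2010005H15Rik the levels were 0.52 and 3.48 CPM against 0.073 and 0.090 CPM. In the somatic cells of E15.5 the signs were opposite for Id3 (−0.56), Wee1 (−0.40), Gmnn (−0.23), 2010005H15Rik (3.87 ± 2.11) and Tdrd9 (1.66 ± 2.04), and the difference was not tested. The last 2 were near the floor there. 2010005H15Rik was at 5.71 and 5.81 CPM in the null pools and at 0 and 0.73 CPM in the wild-type pools. For Tdrd9 the levels were 7.83 and 3.39 CPM against 0 and 3.36 CPM. The somatic pool of null replicate 1 held the germ cell RNA described above, and its part in these values was not tested.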

How the results depend on the processing

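The direction of every one of the 47 named genes that passed was kept in all 16 alternatives of the E15.5 fit. These genes were chosen by their call on the same pools, so a kept direction was largely given by the choice and is no separate support. The number of genes that passed depended strongly on the setting. Against 208 genes, 19 passed without scaling factors, 1387 with no filter on low counts, 676 with a mean of at least 1 CPM, 1566 with DESeq2, 943 with limma-voom, 333 after thinning and 1795 with position sums. RLE factors gave 197 and no filter on cells 212. The spread estimated from all germ cell pools gave 185, but only 41 of these were lower, against 98, and 50.96% of the 208 genes were among them. Of the 47 named genes that passed, 19 lost their call under that spread, 42 without scaling factors and at most 3 under any other setting. Leaving out 1 pool gave 251 to 1739 genes (513 without null replicate 1, 1340 without null replicate 2, 251 without wild-type replicate 1, 150 of them shared, and 1739 without wild-type replicate 2), where the lone pool is assumed to vary like the other genotype.

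With the replicate number as a block 828 genes passed at E15.5, 231 in proximal, 384 in central and 394 in distal cells, 7 at E13.5, 42 at E14.5 and 21 in somatic cells. Same-numbered pools did not deviate together (correlation −0.207), so the numbers were not taken to pair the pools. A crossed replicate block, chosen after seeing the data, gave 2379. With no filter on low counts 513 genes passed in proximal, 1239 in central, 432 in distal and 372 in somatic cells and 2 in the position interaction. Leaving out 1 pool gave 91 to 1060 genes in proximal, 0 to 990 in central and 33 to 2465 in distal cells, 1 to 326 in the position interaction, 0 to 1819 in the time-point interaction, 8 to 266 at E13.5, 13 to 1716 at E14.5 and 10 to 506 in somatic cells. The time-point interaction gave 9 with all germ cell pools in the fit. The Mki67 share differed by 21.9 points after thinning to 20000 UMIs and by 40.3 points in distal cells.

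Every list lost all its calls without scaling factors. The number of higher members ran from 0 to 23 for G1/S genes, 0 to 24 for G2/M genes, 0 to 15 for p53 targets, 0 to 16 for pluripotency genes and 0 to 8 for the Nodal list, and the number of lower members from 0 to 18 for male fate and 0 to 19 for cilium genes. Signs turned for 3 genes that did not pass when 1 pool was left out, Cyp17a1 and Eif2s3y without wild-type replicate 1 (log2 fold changes of −0.0298 to 8.39 and −0.11 to 0.73 over the 4 leave-outs) and Hbb-bt without null replicate 2 (−2 to 0.11). The cause of these shifts was not tested. Leave-outs other than those of the E15.5 comparison, and blocks other than those at E15.5 and its positions, were added after seeing the data.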
